A study of Homo sapiens with 33 samples.

Results

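The genes described here encode 10 parts of the ubiquitin machinery that drives the cell cycle. They were taken by name from the deposited gene matrix, which held all 10 among its 58302 genes, and all 10 passed the filter of at least 100 CP20M in at least 1 library that left 17803 genes. CP20M is the number of reads counted on a gene per 20000000 reads of the library. CDC20, FZR1, UBE2C, UBE2S, FBXO5 and PTTG1 belong to the anaphase-promoting complex (APC/C), whereas SKP2, CKS1B, CKS2 and CCNF belong to, or are close to, the SCF ligases. The RNA-seq libraries came from 6 established human cell lines. H2052, H2452, H28 and MSTO-211H are lines of malignant pleural mesothelioma (MPM) that are sensitive to palbociclib, an inhibitor of the kinases CDK4 and CDK6. The resistant lines were MPP89, an MPM line in which RB1 is mutated, and MeT-5A, mesothelial cells immortalized with SV40, a virus whose large T antigen binds pRb. Each line was treated for 9 or 10 days with 0.1% DMSO or with 1 µM palbociclib, in 2 experiments for H2052 and MPP89, 3 for H2452, H28 and MSTO-211H, and 1 for MeT-5A. All experiments of MPP89 and MeT-5A lasted 9 days. In the sensitive lines, 1 experiment per line (10 days) also held a library of cells from which palbociclib had been washed out for 48 hours. An untreated MeT-5A library completed the 33 libraries. Each line stands for 1 tumour or 1 immortalized culture, so lines and not libraries are the independent units for statements about sensitive or resistant MPM.

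Ubiquitin ligases time the cell cycle by marking regulators for destruction in the proteasome. The APC/C is switched on in mitosis by CDC20 and is kept on into G1 by FZR1 (CDH1), with UBE2C starting and UBE2S extending the ubiquitin chains, whereas FBXO5 (EMI1) holds it off in S and G2. Its substrates include the securin PTTG1, the cyclins and, when FZR1 is bound, SKP2. SKP2 and cyclin F (CCNF) are F-box proteins that bring substrates to the SCF core, and CKS1B is the cofactor by which SKP2 recognizes phosphorylated p27 (CDKN1B), while its paralog CKS2 binds CDKs in the same way. Several of these genes are known to be transcribed mainly in S, G2 and M, under E2F, the DREAM complex and B-MYB/FOXM1, which places them downstream of CDK4, CDK6 and pRb.

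The deposited values summed to between 20007662 and 20021400 per library, as whole numbers that had been rounded up. Low whole numbers that no gene took gave an estimated depth of 12780000 to 19900000 counted reads for 23 of the 33 libraries, and for the remaining 10 no estimate was possible. Mesothelial markers were read in the control libraries (DMSO or untreated), where 6 of 6 reached 100 CP20M in at least 1 of them. This pools the lines, and the highest and lowest line means were far apart. They were 4256 (H2052) and 4.33 (H28) for MSLN, 1118 (MPP89) and 0.667 (H28) for CALB2, and 549 (H2052) and 1.0 (MeT-5A) for WT1. For PDPN they were 668 (H2052) and 0.0 (MSTO-211H), for UPK3B 128 (H2452) and 9.0 (MSTO-211H), and for KRT19 23576 (H2052) and 1.0 (MeT-5A). Of the markers of other cells, 1 of 4 for leukocytes, 1 of 3 for endothelium and 0 of 3 for lung epithelium did, and the highest of these values was 361 CP20M for CD14 in H2452. CD3E was at 0 in every control library. Over the 11 sensitive pairs, the 4 leukocyte markers summed to 0 to 363 CP20M in DMSO and to 0 to 1130 in palbociclib, the 3 endothelial markers to 3 to 150 and 12 to 68, and the 3 lung epithelial markers to 5 to 71 and 3 to 100. Their part in the results below was not tested. Since these are bulk RNA libraries, fewer cells that express a gene and less RNA of it per cell cannot be told apart. The p-values below measure the spread between these libraries and experiments. Every log2 fold change is a difference of log2(CP20M + 10), which understates the change of low genes. The folds between the highest and lowest control line are instead ratios of mean CP20M + 10.

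Palbociclib lowered 8 of the 10 genes in the sensitive lines. PTTG1, UBE2C and CDC20 fell the most, to a median of 13.7%, 16.5% and 16.8% of the DMSO level of the same experiment over 11 pairs. FBXO5, CCNF, UBE2S, CKS2 and CKS1B fell to medians of 23.8%, 24.3%, 34.5%, 36.5% and 41.5%. Each of these 8 genes was lower in 11 of 11 pairs, while the number of all genes lower in every pair was not counted. FZR1 was lower in 11 of 11 pairs too, but by a small amount, and SKP2 was lower in 7 pairs and higher in 4. The test was limma with the experiment as a block over 11 pairs, and a gene was called when its fold change was above 1.5 or below 1/1.5 with a Benjamini-Hochberg FDR under 0.05 over all genes tested. Of all genes, 9.37% were called down and 5.58% up in this comparison, which is 1669 and 994 genes. That balance rests on the scaling of the libraries, with 920 down and 1759 up after median-of-ratios scaling and 1135 and 1372 after upper-quartile scaling, since the median of all genes was -0.11 as deposited, 0.06 and -0.01. The count of 8 members called down stood in all 3 scalings.

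**Figure D1:**
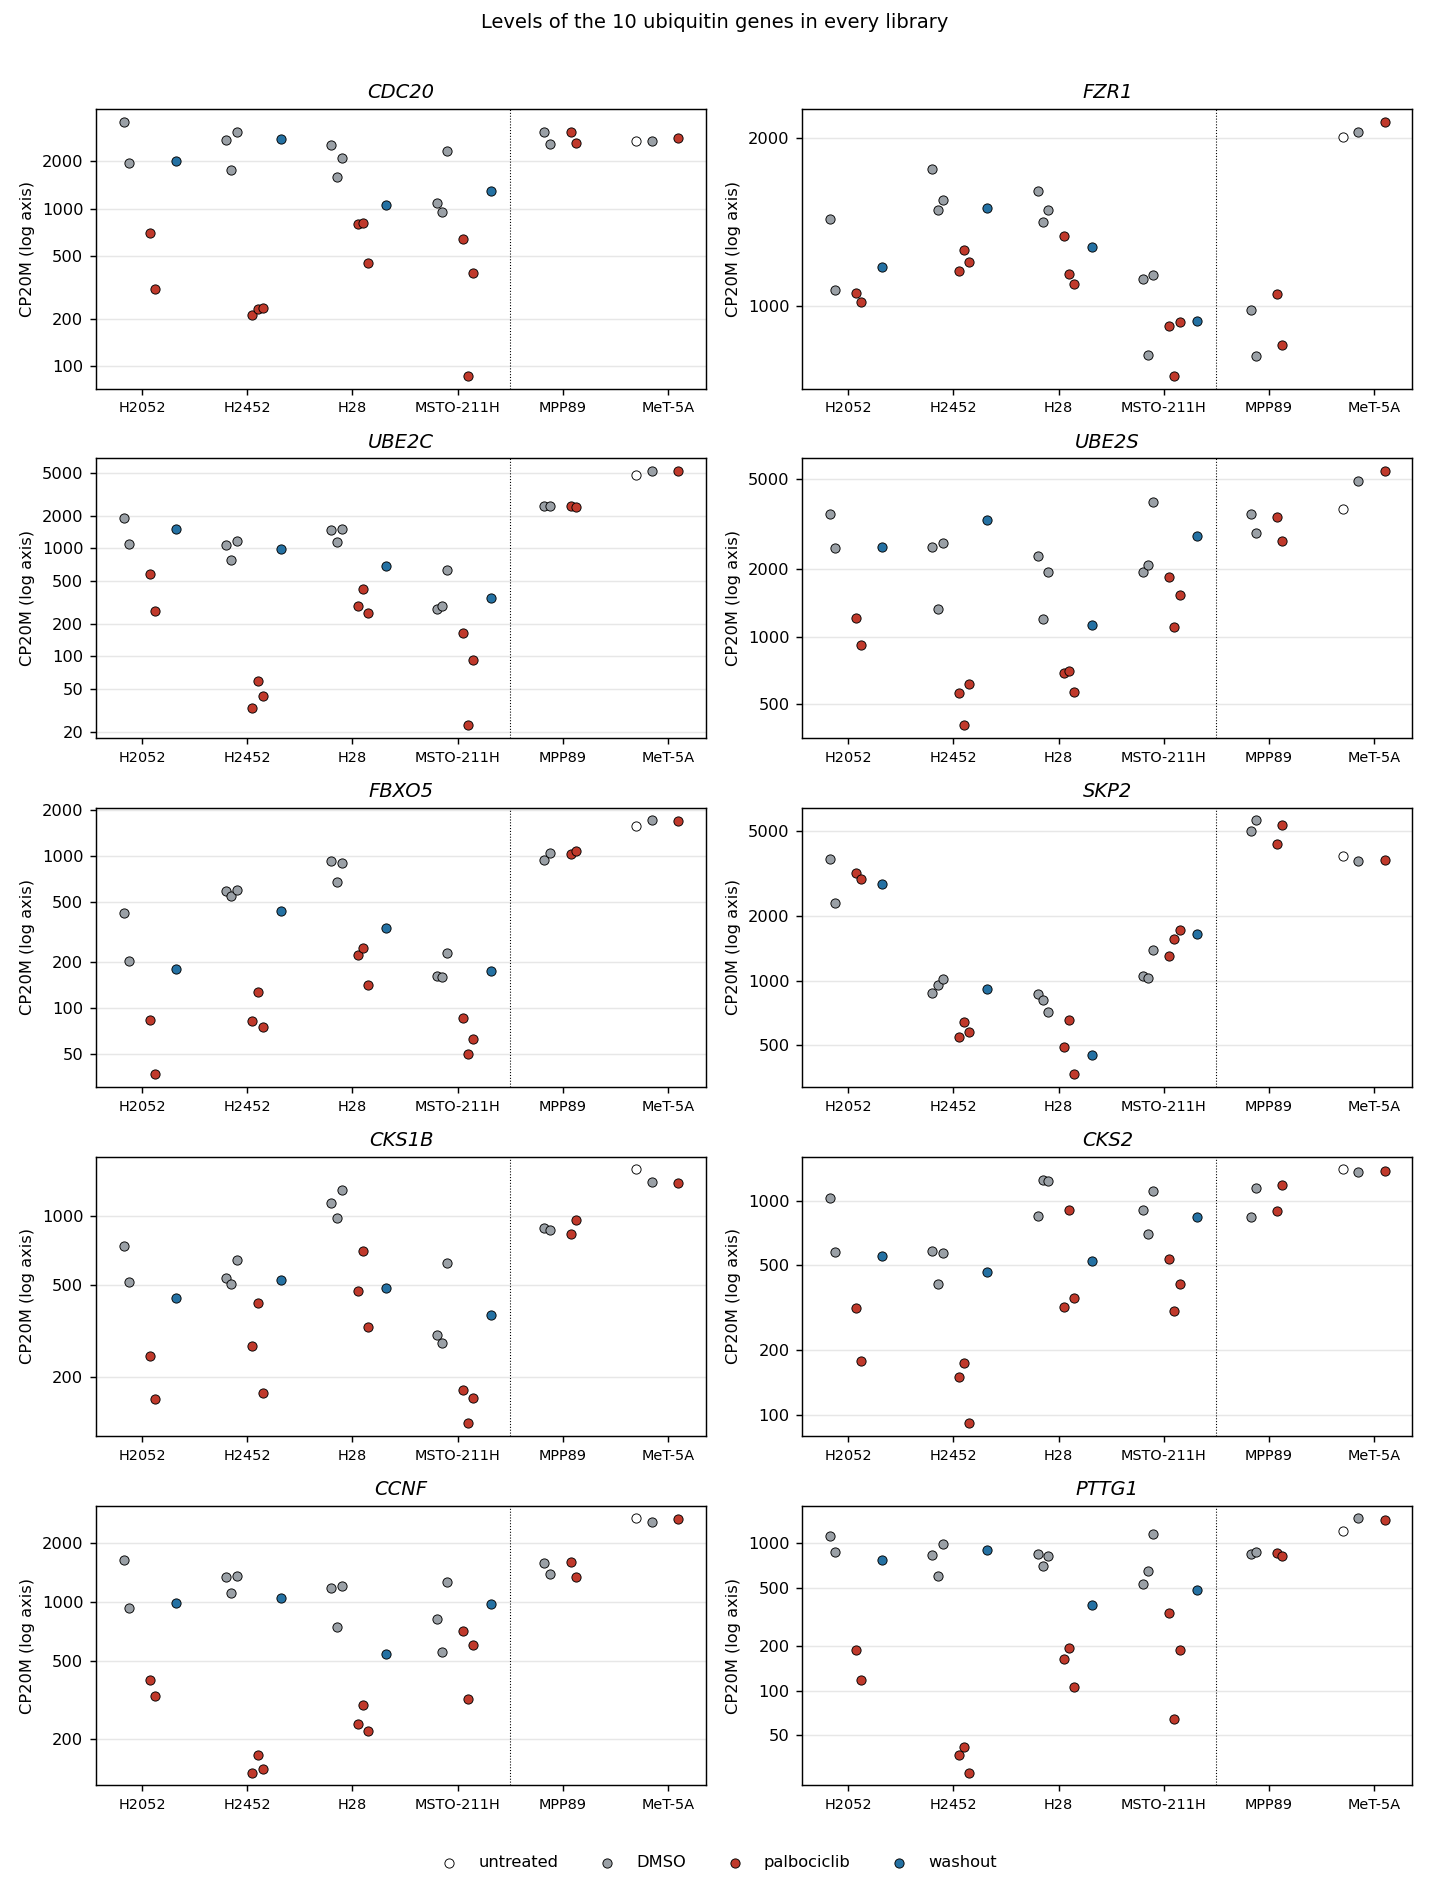
Levels of the 10 genes in every library, in CP20M on log axes, by line (x axis), with sensitive lines left of the dotted line. Each point is 1 library, in white for untreated, grey for DMSO, red for palbociclib and blue for washout. In the sensitive lines the red points lie below the grey ones for most genes, whereas SKP2 in MSTO-211H runs from 1028 to 1386 in DMSO and from 1302 to 1725 in palbociclib, and in MPP89 and MeT-5A the 2 colours lie together.

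CDC20 (ENSG00000117399, chromosome 1 from 43358981 to 43363203 of GRCh38, plus strand) brings mitotic substrates such as cyclin B1 and securin to the APC/C and is the target of the spindle checkpoint. In H2052 it was at 3560 and 1956 CP20M in DMSO and at 705 and 306 in palbociclib. In H2452 it was at 2741, 1756 and 3093 in DMSO and at 210, 230 and 232 in palbociclib. H28 had 2535, 1593 and 2095 in DMSO against 794, 811 and 448, and MSTO-211H had 1088, 952 and 2321 against 644, 86 and 391. The highest palbociclib library, at 811, was below the lowest DMSO library of the sensitive lines, at 952, so the groups did not overlap even across lines. The log2 fold change over 11 pairs was -2.42 (SE 0.26, limma adjusted p = 1.15e-05).

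FZR1 (ENSG00000105325, chromosome 19 from 3506311 to 3538334 of GRCh38, plus strand) is the other activator of the APC/C and acts from late mitosis through G1. It was at 1435 and 1069 CP20M in DMSO and at 1054 and 1019 in palbociclib in H2052, and at 1764, 1491 and 1549 against 1157, 1261 and 1199 in H2452. It was at 1610, 1419 and 1486 against 1338, 1140 and 1095 in H28, and at 1118, 817 and 1137 against 923, 749 and 937 in MSTO-211H. Within H2052, H2452 and H28 each palbociclib library was below the DMSO libraries, while the 2 groups overlapped in MSTO-211H. The log2 fold change was -0.31 (SE 0.05, limma adjusted p = 0.000479), which did not reach 1.5-fold. It was -0.19 (adjusted p = 0.00779) after upper-quartile and -0.11 (adjusted p = 0.105) after median-of-ratios scaling, so that its size depended on the scaling. FZR1 overlaps MFSD12 on the opposite strand, at a mean of 2262 CP20M over the 33 libraries. The kit kept strand, but the strand setting of the counting is not given in the sources used here.

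Because the scaling of a library cancels in a ratio of 2 of its genes, the activators were also set against each other. The 10 CP20M added to each gene leave some dependence on the scaling where a gene is low. Ratios under other scalings were not computed. The log2 ratio of CDC20 to FZR1 fell by 2.11 on average (SD 0.97) and was lower in 11 of 11 sensitive pairs (exact permutation test over sign patterns, two-sided, p = 0.000977, the smallest that 11 pairs allow, adjusted p = 0.00163 over 5 ratios). By line, the mean change was -3.00 in H2452, -2.22 in H2052, -1.98 in MSTO-211H and -1.27 in H28. Over the 3 resistant pairs it was -0.04 (SD 0.06, exact permutation p = 0.50, where 3 pairs cannot go below 0.25).

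UBE2C (ENSG00000175063, chromosome 20 from 45812576 to 45816957 of GRCh38, plus strand), the ubiquitin-conjugating enzyme that primes APC/C substrates, ranged from 276 to 1906 CP20M in the 11 DMSO libraries (median 1108) and from 23 to 575 in palbociclib (median 166). In H2452 it went from 1069, 789 and 1177 in DMSO to 33, 59 and 43 in palbociclib, the lowest mean of the 4 lines (45.0), and the lowest single library was MSTO-211H replicate 2 at 23. The groups overlapped across lines because MSTO-211H started low, at 276, 293 and 636 in DMSO, but within each line no palbociclib library reached a DMSO library. The log2 fold change was -2.66 (SE 0.32, limma adjusted p = 2.82e-05).

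UBE2S (ENSG00000108106, chromosome 19 from 55399745 to 55407788 of GRCh38, minus strand), which extends the chains that UBE2C starts, ranged from 1194 to 3978 CP20M in DMSO (median 2271) and from 403 to 1835 in palbociclib (median 702). It fell less than UBE2C, with a log2 fold change of -1.40 (SE 0.16, limma adjusted p = 2.06e-05). Its annotated span overlaps RPL28 on the opposite strand, at a mean of 6367 CP20M over the 33 libraries. The use of strand in the counting is not known here. The log2 ratio of UBE2C to UBE2S fell by 1.26 on average (SD 0.86, lower in 11 of 11 pairs, exact permutation p = 0.000977, adjusted p = 0.00163). The change of this ratio was -0.39 in H2052, -0.69 in H28, -1.41 in MSTO-211H and -2.26 in H2452, and 0.01 over the 3 resistant pairs (SD 0.13, exact permutation p = 1.0).

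FBXO5 (ENSG00000112029, chromosome 6 from 152970519 to 152983579 of GRCh38, minus strand), the inhibitor that keeps the APC/C off before mitosis, was at 422 and 205 CP20M in DMSO and at 84 and 37 in palbociclib in H2052. In H2452 it was at 585, 543 and 594 against 83, 129 and 75, and in H28 at 931, 678 and 900 against 224, 249 and 142. In MSTO-211H it was at 163, 161 and 232 against 86, 50 and 63. No line had an overlap between its groups, and the log2 fold change was -1.998 (SE 0.16, limma adjusted p = 1.83e-06). The transcript AL080276.2 overlaps FBXO5 on the opposite strand, at a mean of 230.0 CP20M over the 33 libraries, and the use of strand in the counting is not known here. The log2 ratio of FBXO5 to FZR1, inhibitor to activator, fell by 1.69 (SD 0.54, lower in 11 of 11 pairs, exact permutation p = 0.000977, adjusted p = 0.00163). The change of this ratio was -0.02 over the 3 resistant pairs (SD 0.05, exact permutation p = 0.75).

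PTTG1 (ENSG00000164611, chromosome 5 from 160421855 to 160428739 of GRCh38, plus strand), the securin that blocks separase until the APC/C removes it, had the largest fall of the 10 genes. It was at 1110 and 869 CP20M in DMSO and at 190 and 119 in palbociclib in H2052, and at 831, 600 and 983 against 37, 42 and 28 in H2452. In H28 it was at 850, 698 and 815 against 165, 195 and 107, and in MSTO-211H at 528, 650 and 1163 against 335, 65 and 189. As for CDC20, the highest palbociclib library, at 335, was below the lowest DMSO library, at 528. The log2 fold change was -2.81 (SE 0.29, limma adjusted p = 9.57e-06), and single pairs kept between 2.85% and 63.4% of the DMSO level.

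SKP2 (ENSG00000145604, chromosome 5 from 36151989 to 36196849 of GRCh38, plus strand), the F-box protein that targets p27, did not move in the same direction in the 4 sensitive lines. In H2052 it was at 3697 and 2308 CP20M in DMSO and at 3178 and 2976 in palbociclib. In H2452 it was at 874, 957 and 1012 against 543, 639 and 572, and in H28 at 868, 815 and 716 against 487, 656 and 364. In MSTO-211H it was at 1052, 1028 and 1386 against 1302, 1562 and 1725. The palbociclib libraries lay below all DMSO libraries in H2452 and H28, within their range in H2052, and in MSTO-211H each was above the DMSO library of its own experiment. The log2 fold change over 11 pairs was -0.25 (SE 0.15, limma adjusted p = 0.179), and without MSTO-211H it was -0.50 (adjusted p = 0.0120), still short of 1.5-fold. Its annotated span overlaps NADK2 on the opposite strand, at a mean of 741 CP20M over the 33 libraries. The use of strand in the counting is not known here.

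By line, SKP2 was called down in H2452 (log2 fold change -0.69, SE 0.07, limma adjusted p = 0.0151), a call that the smaller change of -0.49 or -0.54 under other scalings did not keep. It was -0.70 in H28 (SE 0.15, limma adjusted p = 0.0517), 0.07 in H2052 (SE 0.18, limma adjusted p = 0.771) and 0.41 in MSTO-211H (SE 0.10, limma adjusted p = 0.0628). The test of the difference among the 4 lines gave limma adjusted p = 0.00319 for SKP2 (F test, range of the 4 line changes 1.10), and this call stood in each of the 20 alternatives tried, with adjusted p from 0.00120 to 0.0256.

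CKS1B (ENSG00000173207, chromosome 1 from 154974653 to 154979251 of GRCh38, plus strand), the cofactor of SKP2, ranged from 282 to 1299 CP20M in DMSO (median 622) and from 126 to 702 in palbociclib (median 248), with a log2 fold change of -1.24 (SE 0.16, limma adjusted p = 4.12e-05). CKS2 (ENSG00000123975, chromosome 9 from 89311195 to 89316703 of GRCh38, plus strand) ranged from 407 to 1252 (median 852) and from 91 to 905 (median 317), with -1.44 (SE 0.15, limma adjusted p = 1.11e-05). CKS1B overlapped between groups in no line, and CKS2 overlapped in H28 alone, where replicate 2 kept 72.3% of its DMSO level. The CKS1B to CKS2 ratio changed by 0.20 (SD 0.44, higher in 7 of 11 pairs, exact permutation p = 0.163, adjusted p = 0.163). That mean was set by H2452, whose 3 pairs changed by 0.84 (SD 0.15), and it was -0.04 without this line.

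CCNF (ENSG00000162063, chromosome 16 from 2429394 to 2458854 of GRCh38, plus strand), a cyclin that works as an F-box protein and has CDC6 and CP110 among its substrates, ranged from 551 to 1632 CP20M in DMSO (median 1180) and from 134 to 707 in palbociclib (median 298). Its groups overlapped in MSTO-211H, where DMSO was at 818, 551 and 1258 and palbociclib at 707, 319 and 600. The log2 fold change was -1.87 (SE 0.26, limma adjusted p = 8.15e-05), from -3.03 in H2452 (SE 0.14, limma adjusted p = 0.0123) to -0.68 in MSTO-211H (SE 0.20, limma adjusted p = 0.0854). The transcript AC106820.5 overlaps CCNF on the opposite strand and was at a mean of 167 CP20M, and its level followed that of CCNF (Pearson r = 0.99 over 33 libraries). Without strand in the counting, reads of the 2 could not be told apart.

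**Figure D2:**
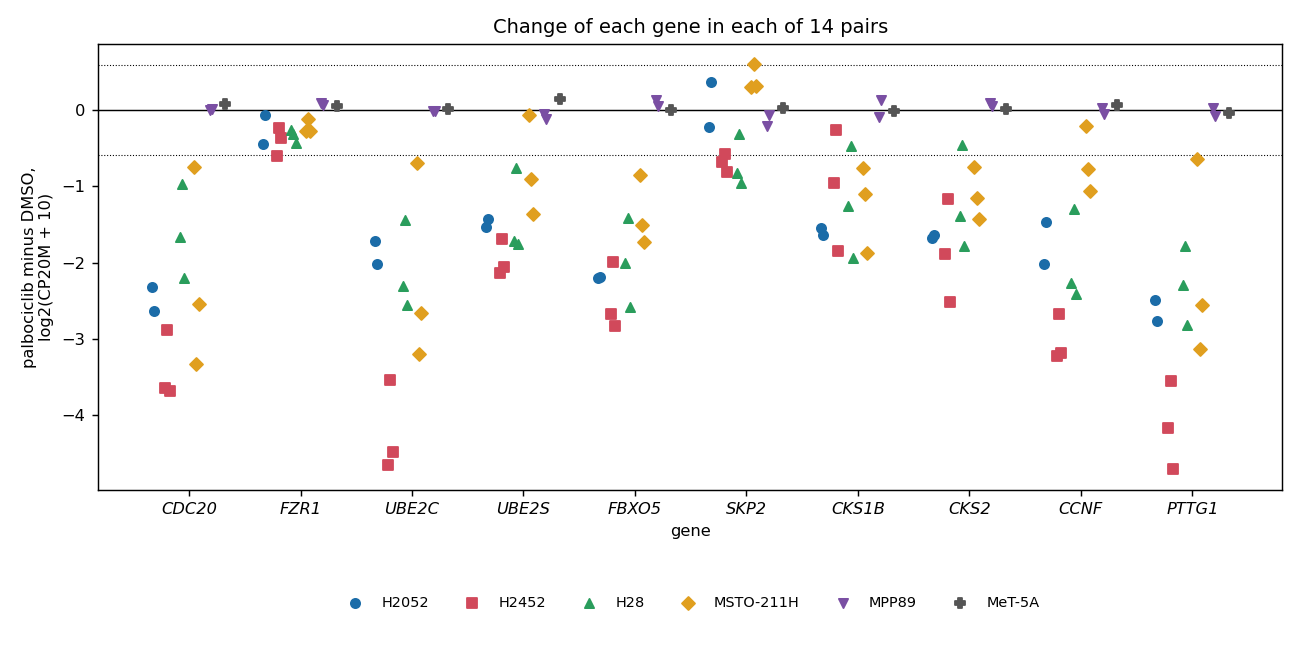
Change of each gene in each of the 14 pairs of a palbociclib and a DMSO library (y axis, difference of log2(CP20M + 10)), with a colour and symbol per line. Dotted lines mark 1.5-fold. Pairs of sensitive lines reach from 0.60 (SKP2 in MSTO-211H) down to -4.71 (PTTG1 in H2452), and all values of MPP89 and MeT-5A lie between -0.21 and 0.15.

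Promoters of these genes are shown because the genes that fell together are known as targets of factors that read short promoter words, and SKP2 and FZR1 serve as the contrast. RefSeq promoters of GRCh38.p14, from 250 bases before to 50 bases after a start, were matched for 9 of the 10 genes (12 promoters), and UBE2C was not matched. The words searched on both strands were the cell cycle homology region (CHR, as TTTGAA or TTTAAA), the CCAAT box (CCAAT) and an E2F heptamer (TTCCCGC or TTCGCGC or TTGCCGC or TTGGCGC), which can overlap one another. Capitals mark these words below, also where they read in reverse (TTCAAA or ATTGG).
CDC20 chr1:43358731-43359030 (plus strand): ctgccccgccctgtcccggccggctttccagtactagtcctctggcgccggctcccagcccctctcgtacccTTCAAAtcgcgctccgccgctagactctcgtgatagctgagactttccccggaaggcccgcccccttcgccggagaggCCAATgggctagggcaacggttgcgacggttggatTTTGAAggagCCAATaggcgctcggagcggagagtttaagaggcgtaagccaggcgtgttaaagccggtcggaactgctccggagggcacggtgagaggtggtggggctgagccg
CKS1B chr1:154974431-154974730 (plus strand): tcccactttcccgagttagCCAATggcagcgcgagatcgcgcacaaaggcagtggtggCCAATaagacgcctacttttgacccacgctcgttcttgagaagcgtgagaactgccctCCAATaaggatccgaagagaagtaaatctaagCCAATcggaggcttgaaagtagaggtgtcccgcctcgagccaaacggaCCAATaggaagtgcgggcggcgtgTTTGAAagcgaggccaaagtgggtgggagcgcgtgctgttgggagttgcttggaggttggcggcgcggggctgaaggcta
PTTG1 chr5:160421605-160421904 (plus strand): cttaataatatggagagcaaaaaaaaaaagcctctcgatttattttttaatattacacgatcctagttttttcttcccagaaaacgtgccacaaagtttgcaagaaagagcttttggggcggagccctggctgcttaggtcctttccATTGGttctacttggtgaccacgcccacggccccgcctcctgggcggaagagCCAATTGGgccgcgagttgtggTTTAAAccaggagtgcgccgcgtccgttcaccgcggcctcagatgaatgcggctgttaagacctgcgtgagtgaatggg
FZR1 chr19:3506061-3506360 (plus strand): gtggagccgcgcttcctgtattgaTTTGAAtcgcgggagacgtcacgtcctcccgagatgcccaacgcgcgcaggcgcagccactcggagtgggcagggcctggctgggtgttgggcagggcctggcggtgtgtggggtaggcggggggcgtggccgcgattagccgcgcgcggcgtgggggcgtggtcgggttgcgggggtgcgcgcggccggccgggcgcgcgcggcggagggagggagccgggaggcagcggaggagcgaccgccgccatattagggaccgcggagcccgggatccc
SKP2 chr5:36151861-36152160 (plus strand): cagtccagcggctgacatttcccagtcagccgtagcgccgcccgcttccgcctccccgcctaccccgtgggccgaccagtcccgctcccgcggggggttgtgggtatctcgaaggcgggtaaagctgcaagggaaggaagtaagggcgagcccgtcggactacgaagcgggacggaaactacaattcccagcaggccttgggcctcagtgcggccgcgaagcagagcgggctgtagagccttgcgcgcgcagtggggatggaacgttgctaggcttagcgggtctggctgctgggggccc
CDC20 held a CHR word 65 bases before the start beside CCAAT words at 100 and 55 bases, and a further CHR word in reverse at 178 bases. CKS1B held a CHR word at 30 bases and 5 CCAAT words, the nearest at 54 bases. PTTG1 held TTTAAA at 29 bases with 3 CCAAT words in the promoter shown. The SKP2 promoter held none of the words, and the FZR1 promoter at the gene's first start held a CHR word at 226 bases and no CCAAT, while its second promoter held 2 E2F heptamers. Of the 7 called genes with a promoter, 6 held a CHR word and a CCAAT word in the same promoter (CDC20, FBXO5, CKS1B, CKS2, CCNF and PTTG1), and UBE2S held a CCAAT word alone. This counts a gene when any of its promoters held both words, while the shares that follow count single promoters. The first FBXO5 promoter held none of the words. Among 35116 promoters of the same length, 24.0% held a CHR word, 34.6% a CCAAT word, 12.97% an E2F heptamer and 9.27% both CHR and CCAAT. These matches describe the letters of the windows and no site or factor was measured.

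The sensitive lines were then taken one by one. In H2052, 8 of 10 genes were called down (all but FZR1 and SKP2) against 13.0% of all genes down and 4.67% up. In H2452, 8 were called down against 10.8% down and 6.04% up, with SKP2 among them and without CKS1B (log2 fold change -1.02, SE 0.34, limma adjusted p = 0.0887). The 3 pairs of CKS1B in H2452 went from 538 to 273, from 505 to 418 and from 643 to 171 CP20M. In the H28 line, 6 were called down (CDC20, UBE2C, UBE2S, FBXO5, CCNF and PTTG1) against 7.34% down and 5.89% up, and in MSTO-211H 2 were (FBXO5 and CKS2) against 7.94% down and 5.90% up. In MSTO-211H, CDC20 was at -2.20 (SE 0.55, limma adjusted p = 0.0662) and PTTG1 at -2.11 (SE 0.55, limma adjusted p = 0.0708). The share of called genes that were down in all genes again depended on the scaling, from 73.5% as deposited to 29.2% after median-of-ratios scaling in H2052, from 64.1% to 38.6% for H2452, from 55.5% to 38.4% for H28 and from 57.4% to 32.5% for MSTO-211H.

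The counts by line changed when a pair was left out, whereas the count over 11 pairs stayed at 8 without any 1 pair or line. Leaving out a pair gave 6 or 8 members in H2052, 0 (without replicate 1 or 3) or 8 (without replicate 2) in H2452, and 0 without any 1 replicate in H28 and MSTO-211H, where H2052 with its lone pair was fitted together with all lines, which assumes that this pair varies like the others. In each of the fits by line that gave 0 members, 0 of the 17803 genes were called. These zeros thus hold for the whole matrix and not for the members alone. In MSTO-211H, a fit of all lines together called 8 members down, against 15.5% of all genes down and 10.6% up in that fit. In 6 of the 8 called genes the weakest fall of the 11 pairs was in MSTO-211H replicate 1, which kept 59.2% of CDC20, 60.1% of UBE2C, 52.8% of FBXO5, 63.4% of PTTG1, 86.4% of CCNF and 95.1% of UBE2S. In 7 of the 8, the largest fall was in H2452 replicate 1 or 3.

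The size of the fall differed among the 4 sensitive lines for UBE2C, SKP2, CCNF and PTTG1 (limma F test, adjusted p = 0.0205, 0.00319, 0.00205 and 0.0358), against 37.1% of all genes, so that a difference among lines was common. Over 20 alternatives, the call was kept in 20 for SKP2 and CCNF, was lost in 4 for UBE2C (adjusted p up to 0.127) and was lost in 10 for PTTG1 (adjusted p up to 0.181). Leaving out H2452 replicate 1 or 3 ended it for UBE2C (adjusted p = 0.0910 or 0.0772) and for PTTG1 (adjusted p = 0.107 or 0.139). For PTTG1, leaving out either replicate of H2052 (adjusted p = 0.0624 and 0.0649) or H28 replicate 1 or 2 (adjusted p = 0.0688 and 0.0547) ended it too. The largest difference between 2 line means was 2.36 for UBE2C, 2.35 for CCNF and 2.03 for PTTG1 on the log2 scale, each between H2452 and the line with the weakest fall, H2052 for UBE2C and MSTO-211H for CCNF and PTTG1. For CDC20 (1.79, adjusted p = 0.0834), UBE2S (1.18, adjusted p = 0.0603), FBXO5 (1.14, adjusted p = 0.0731), CKS2 (0.75, adjusted p = 0.270), CKS1B (0.56, adjusted p = 0.762) and FZR1 (0.18, adjusted p = 0.631) the limma F test did not pass the threshold.

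Treatment lasted 9 days in 7 of the sensitive pairs and 10 days in the other 4, and all 10-day pairs were the last experiment of their line, so duration and experiment cannot be told apart. In fits of each set alone, added after seeing the data, 8 members were called down in both. The share of all genes called in these fits is not given here. The mean log2 change was -0.91 at 9 and -1.82 at 10 days for CKS1B, -1.21 and -1.84 for CKS2 and -2.22 and -2.76 for CDC20. The difference between the 2 durations was not tested.

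In the resistant lines the palbociclib libraries lay close to their DMSO libraries. In MPP89, CDC20 was at 3075 and 2586 CP20M in DMSO and at 3066 and 2608 in palbociclib, and SKP2 at 5019 and 5631 against 4343 and 5377. In MeT-5A, CDC20 was at 2682 in DMSO and 2836 in palbociclib, and SKP2 at 3622 and 3685. Over the 10 genes and 3 pairs, palbociclib libraries held between 86.5% and 111% of the DMSO level. None of the 10 was called in MPP89 or over the 3 resistant pairs with limma, and no gene of the matrix was either (0.00% down and 0.00% up in both fits, with 918 and 1258 genes at an unadjusted p under 0.05).

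The difference of the response between sensitive and resistant lines was tested with an interaction term over 14 pairs. All 3 resistant pairs were treated for 9 days and 4 of the sensitive pairs for 10, so class and duration are partly confounded, which was not tested. The interaction passed an FDR of 0.05 for 9 of the 10 genes, all lower in the sensitive lines, against 7.81% of all genes lower and 1.56% higher. It was largest for PTTG1 (-2.78, SE 0.58, limma adjusted p = 0.00983), UBE2C (-2.66, SE 0.64, limma adjusted p = 0.0193) and CDC20 (-2.45, SE 0.52, limma adjusted p = 0.0103), and it was -0.17 for SKP2 (SE 0.30, limma adjusted p = 0.752). For FZR1 it was -0.38 (SE 0.11, limma adjusted p = 0.0361) and the call was lost under upper-quartile (adjusted p = 0.136) and median-of-ratios scaling (adjusted p = 0.386). CCNF lost it under median-of-ratios scaling as well (-1.67, adjusted p = 0.0630). Of all genes called in this test, 83.3% were lower as deposited, 60.2% with upper-quartile and 40.1% with median-of-ratios scaling. The resistant side rests on 3 pairs of 2 lines. Without any 1 of them (MPP89 replicate 1, MPP89 replicate 2 or MeT-5A) only FBXO5 kept the call, at -2.02 to -2.09 with adjusted p from 0.0242 to 0.0266. CDC20 then had adjusted p from 0.0646 to 0.0691. In these 3 fits the genes called over the whole matrix fell too, from 1668 of 17803 to 194, 242 and 177. The loss was therefore not particular to the members.

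Washout of palbociclib raised 7 of the 10 genes within 48 hours. Over 4 experiments of 1 library per condition, the log2 fold change of washout against palbociclib was 2.56 for PTTG1 (SE 0.44, limma adjusted p = 0.0241), 2.49 for UBE2C (SE 0.42, limma adjusted p = 0.0238) and 2.28 for CDC20 (SE 0.31, limma adjusted p = 0.0132). FBXO5 rose by 1.74, UBE2S by 1.43, CKS2 by 1.35 and CKS1B by 1.17, with limma adjusted p from 0.0132 to 0.0301. CCNF was at 1.58 (SE 0.33, limma adjusted p = 0.0512), FZR1 at 0.19 (SE 0.09, limma adjusted p = 0.439) and SKP2 at 0.20 (SE 0.22, limma adjusted p = 0.774). Of all genes, 1.40% were called up and 0.00% down. These 250 genes up became 171 up after upper-quartile scaling and 139 up with 2 down after median-of-ratios scaling, where CKS2 lost its call (adjusted p = 0.0604). Each of the 8 genes lowered by palbociclib was higher after washout in 4 of 4 lines, and SKP2 in 2 of 4. The number of all genes higher in every line was not counted. The 7 calls depended on having all 4 lines with the line as a block, since 4 remained without H28 and 0 without H2052, H2452 or MSTO-211H or without the block. Over all genes, 104 were called without H28 and 0 in each of those other fits.

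How far the levels came back differed between the lines, with 1 washout library each and no test. CDC20 went from 1956 in DMSO through 306 in palbociclib to 2017 CP20M after washout in H2052, and from 3093 through 232 to 2769 in H2452. In H28 it went from 2095 through 448 to 1059, and in MSTO-211H from 2321 through 391 to 1288. The share of the fall regained, over the members that had fallen by more than 1.5-fold in that experiment, had a median of 98.4% in H2052 (8 members), 78.2% in H2452 (9 members), 49.6% in MSTO-211H (8 members) and 32.6% in H28 (9 members). In H28 all 10 members stayed below the range of its DMSO libraries, also FZR1, SKP2, CKS1B and CKS2, which palbociclib was not called to lower there. The number below that range was 4 in H2052, 2 in H2452 and 1 in MSTO-211H. How many of all genes lay below it was not counted, so whether these numbers are particular to the members is not known. In H28, CKS1B regained 16.3%, CKS2 19.5% and FBXO5 25.5% of the fall.

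**Figure D3:**
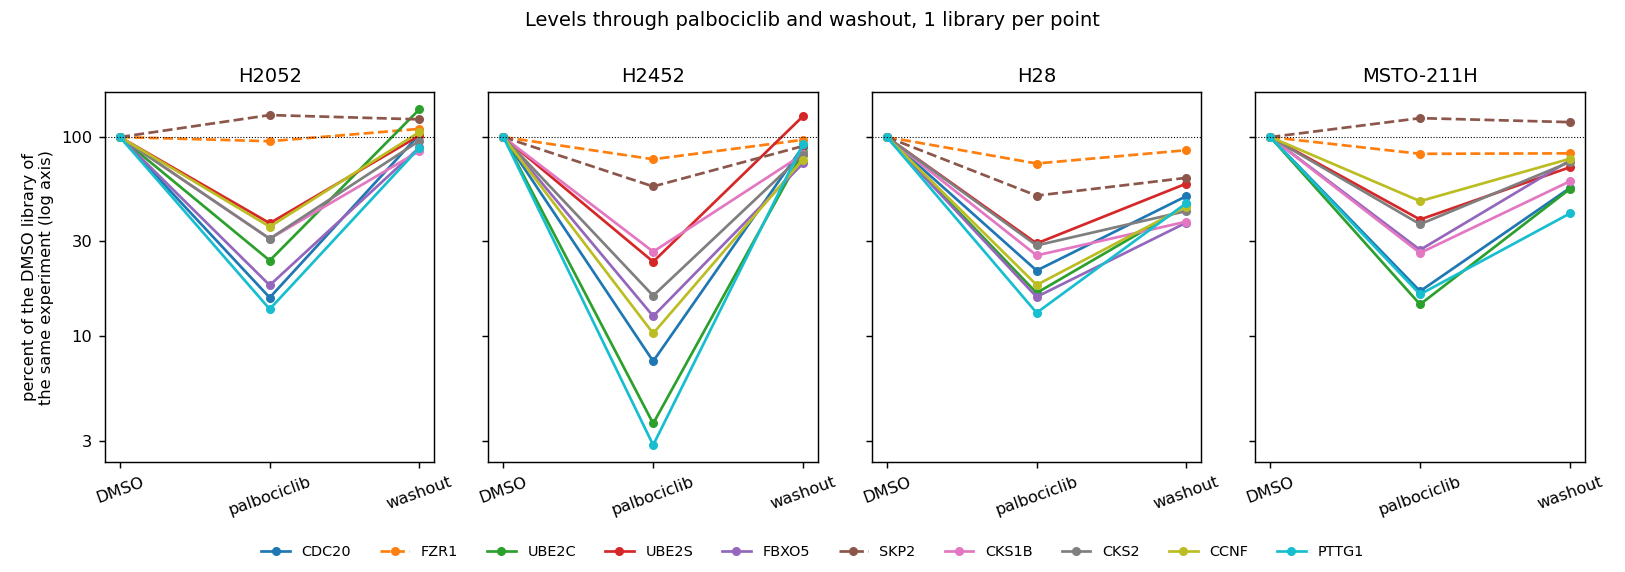
Level of each gene in palbociclib and after washout in percent of the DMSO library of the same experiment (y axis, log scale), with a panel per sensitive line and a line per gene, dashed for FZR1 and SKP2. Each point is 1 library. PTTG1 in H2452 goes from 2.85% to 92.0%, while in H28 the washout libraries hold between 37.2% and 85.9%.

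SKP2 after washout was at 2832 CP20M in H2052 (palbociclib 2976) and at 1647 in MSTO-211H (palbociclib 1725), close to the palbociclib libraries in both. In H2452 it was at 912 against 572 in palbociclib, and in H28 at 447 against 364. Against DMSO, CKS1B was the only member called after washout (-0.66, SE 0.18, limma adjusted p = 0.0480), against 2.95% of all genes down and 2.81% up, and this call was lost with median-of-ratios (280 down and 730 up among all genes, against 526 and 500) or upper-quartile scaling (348 and 612), and without any 1 line. PTTG1 was at -0.66 (SE 0.44, limma adjusted p = 0.344), FBXO5 at -0.59 (SE 0.24, limma adjusted p = 0.129) and CDC20 at -0.48 (SE 0.31, limma adjusted p = 0.325). A p that misses the threshold over 4 lines does not show that a level had returned to that of DMSO.

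p27 (CDKN1B), which SKP2 and CKS1B mark for destruction, was followed at the RNA level beside them. CDKN1B fell over the sensitive pairs from a mean of 905 to 536 CP20M (log2 fold change -0.80, SE 0.10, limma adjusted p = 2.85e-05, lower in 11 of 11 pairs). The log2 ratio of SKP2 to CDKN1B rose by 0.54 (SD 0.61, higher in 10 of 11 pairs, exact permutation p = 0.00488, adjusted p = 0.00610). The rise was 1.42 in MSTO-211H (SD 0.23), 0.33 in both H2052 and H28, and 0.04 in H2452, and without MSTO-211H the mean was 0.22 (adjusted p = 0.0488). In the resistant pairs the ratio changed by -0.14 (SD 0.14, exact permutation p = 0.25, the smallest that 3 pairs allow). A ratio of 2 transcripts says nothing of the proteins.

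**Figure D4:**
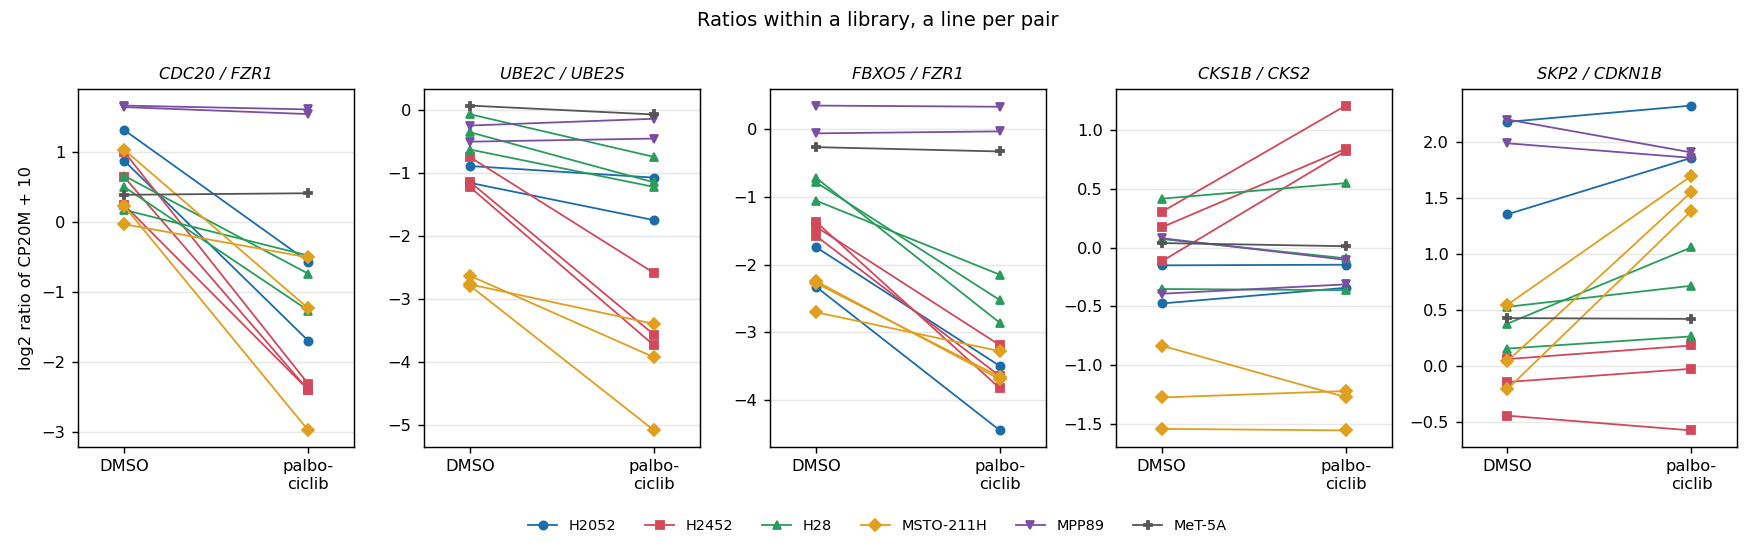
The 5 log2 ratios of CP20M + 10 within a library (y axis) in DMSO and in palbociclib, with a line per pair and a colour per cell line. The first 3 ratios fall in all 11 sensitive pairs, CKS1B to CKS2 rises in H2452 by 0.84, and SKP2 to CDKN1B rises most in MSTO-211H, by 1.42.

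The members were read beside the genes they work with, over the same 11 pairs and against a median of -0.11 for all genes tested, of which 9.37% were called down and 5.58% up. Among 20 APC/C substrates, 20 were called down, with a median log2 fold change of -2.26. The largest fall was NEK2, a centrosome kinase, at -2.95 (SE 0.25, limma adjusted p = 2.14e-06), and the smallest was CDC6, a replication licensing factor, at -0.93 (SE 0.20, limma adjusted p = 0.00176, lower in 10 of 11 pairs). This list of substrates was chosen with earlier results of these data known, and it holds none of the 10 members. Of the members named above as substrates, PTTG1 was called down at -2.81 and SKP2 was not called at -0.25 (limma adjusted p = 0.179). Of 6 genes of the mitotic checkpoint, which restrains CDC20, 4 were called down (MAD2L1, BUB1B, BUB1 and TTK, with TTK at -2.43), while BUB3 was at -0.39 and MAD1L1 at 0.01. Separase (ESPL1), the protease that PTTG1 restrains, was at -2.29 (SE 0.31, limma adjusted p = 5.91e-05), and 6 of 8 genes of that list were called down, with cohesin subunits RAD21 at -1.01, SMC3 at -0.999, SMC1A at -0.66 and STAG2 at -0.63, and PTTG1IP not called at 0.18.

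Among the 14 core subunits of the APC/C, 0 were called and the median was -0.27, from -0.49 for ANAPC10 to -0.02 for ANAPC13, although 10 of them had an FDR under 0.05 without reaching 1.5-fold. Among 11 genes of the SCF core and of neddylation, 0 were called and the median was -0.27, with RBX1 at -0.52 and CDC34 at 0.13. Among 8 other F-box genes of the cell cycle, 0 were called and the median was 0.01, from FBXW7 at -0.25 to BTRC at 0.36. Of 8 substrates of SKP2 and cyclin F, 4 were called down, with CDT1 at -1.61, CCP110 at -1.05, CDKN1C at -0.88 and CDKN1B at -0.80, and the highest was CDKN1A at -0.01. For the 10 members themselves the median was -1.66.

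**Figure D5:**
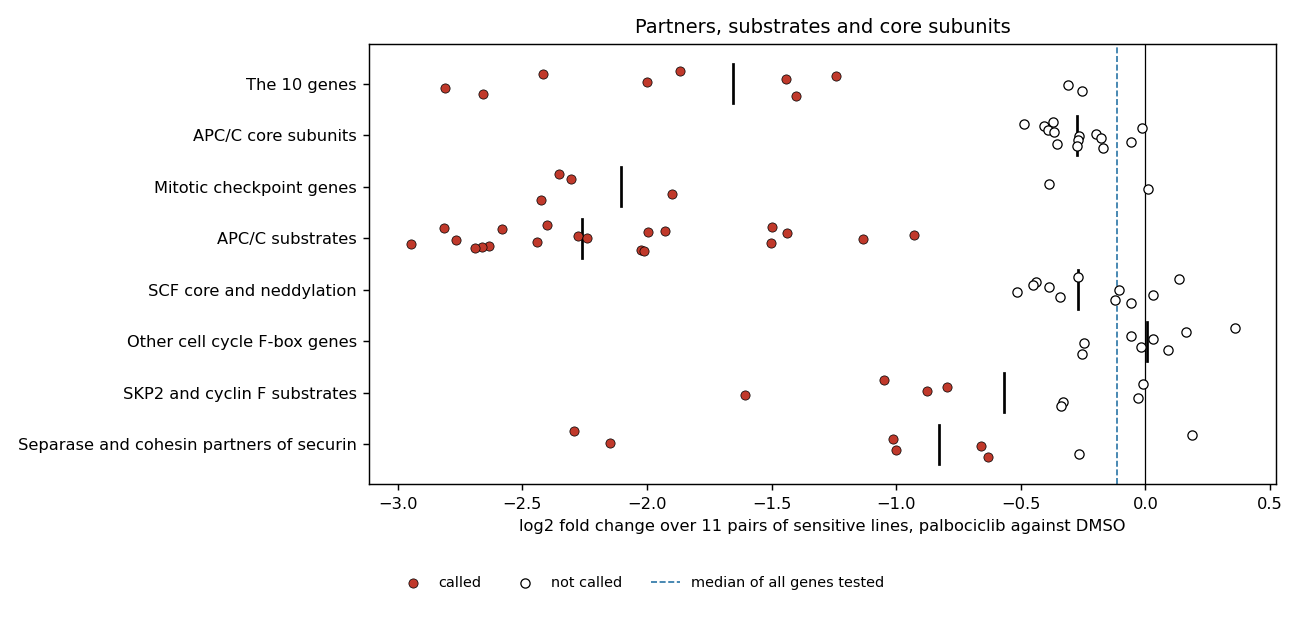
Log2 fold change over the 11 sensitive pairs (x axis) for the 10 genes and for each list of partners (y axis), with 1 point per gene, red where called and white where not. The black bar is the median of the list and the dashed line the median of all genes tested, -0.11. The 20 substrates lie between -2.95 and -0.93, and the 14 APC/C core subunits between -0.49 and -0.02.

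In the control libraries the levels of 8 of the 10 genes differed among the 6 lines (limma F test, FDR under 0.05), but so did 96.3% of all genes. The exceptions were CDC20 (adjusted p = 0.0610) and PTTG1 (adjusted p = 0.0923), whose highest and lowest lines were 1.94-fold and 1.71-fold apart. UBE2S (adjusted p = 0.0371) lost the call in 11 of 22 alternatives, among them median-of-ratios (adjusted p = 0.118) and upper-quartile scaling (adjusted p = 0.0616), and the count of 8 ran from 7 to 10 with 1 control library left out. UBE2C differed the most, 12.2-fold, from 4998 CP20M ± 267 (SD, n = 2) in MeT-5A to 2475 ± 34.6 (SD, n = 2) in MPP89, 1507 ± 564 (SD, n = 2) in the H2052 line, then 1380 ± 205 (SD, n = 3) in H28, 1012 ± 200 (SD, n = 3) in H2452 and 402 ± 203 (SD, n = 3) in MSTO-211H. Of the neighbours in this order, H2052 overlapped H28 and H28 overlapped H2452, and the others did not overlap.

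FBXO5 varied 8.46-fold, from 1643 CP20M ± 94.8 (SD, n = 2) in MeT-5A to 185 ± 40.4 (SD, n = 3) in MSTO-211H, with neighbours in the order apart from each other except H2052 and MSTO-211H. SKP2 varied 6.59-fold and had another order, with MPP89 first at 5325 ± 433 (SD, n = 2), MeT-5A at 3735 ± 160 (SD, n = 2) and H2052 at 3003 ± 982 (SD, n = 2), whose libraries overlapped those of MeT-5A. MSTO-211H at 1155 ± 200 (SD, n = 3), H2452 at 948 ± 69.5 (SD, n = 3) and H28 at 800 ± 77.2 (SD, n = 3) followed without overlap. CKS1B varied 3.64-fold, CCNF 2.95-fold, CKS2 2.63-fold, UBE2S 2.39-fold and FZR1 2.25-fold. MeT-5A was the highest line for 8 of the 10 genes, and MPP89 for CDC20 and SKP2, while the share of all genes highest in MeT-5A was not counted.

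For UBE2C and FBXO5, the resistant control libraries were above those of all 4 sensitive lines, and for SKP2, CKS1B and CCNF above those of 3. How many of all genes did so was not counted. The median log2 difference of all genes, resistant minus sensitive, was 0.18 as deposited, 0.097 after upper-quartile and 0.0017 after median-of-ratios scaling. With the line as the unit, 6 line means did not separate the classes, as 0 of the 10 genes were called and 0.00% of all genes were lower and 0.0899% higher in the resistant lines. The log2 difference, resistant minus sensitive, was 1.91 for UBE2C (SE 0.61, limma adjusted p = 0.494), 1.81 for SKP2 (SE 0.55, limma adjusted p = 0.474) and 1.64 for FBXO5 (SE 0.63, limma adjusted p = 0.559).

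The genes whose log2 levels followed each member most closely over the 33 libraries are given as a description, since the libraries share lines and treatments. They were CKAP2L for CDC20 (Pearson r = 0.98), CDCA5 for UBE2C (0.98), TRIM59 for FBXO5 (0.98), PBK for PTTG1 (0.97) and, after the overlapping AC106820.5, CCNA2 for CCNF (0.96). SKP2 was closest to ARHGAP45 (0.96), UBE2S to MIR3917 (0.95) and, next, STMN1 (0.95), CKS1B to AC009133.4 (0.96), CKS2 to HIST1H2BL (0.95) and FZR1 to B4GALNT1 (0.89). Between the 8 genes that fell, the changes over the 11 sensitive pairs had a median r of 0.74 over 28 gene pairs, from 0.12 for UBE2C and CKS1B to 0.95 for UBE2C and PTTG1. SKP2 changed most like CCNF (r = 0.85). Annotated copies of the members were low, with CDC20P1 up to 150 CP20M (mean 59.8), UBE2SP1 up to 122 and the others at 34 or less.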

How the data were processed

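The libraries were sequenced by the authors as paired ends from a directional kit. Per the labels and the methods, reads were trimmed with Trimmomatic 0.36, mapped to GRCh38 with STAR 2.5.3, counted per gene with HTSeq 0.9.1 and scaled to the library. The deposited values are a normalized score, CP20M rounded up to whole numbers, and not raw reads, so the DESeq2 model of the authors was not used. Here log2(CP20M + 10) was tested with limma 3.58.1 (R 4.3.3) for genes with 100 CP20M in at least 1 library, blocked on the experiment that the methods pair libraries by. Libraries of 1 experiment deviated together from their group means, with a correlation over genes of 0.18 to 0.78. Replicates had equal values at no more than 4.33% of genes, so none were merged. All 10 members, the genes with the largest fall and rise of each list, genes of the ratios and copies were named, and other list genes (of the checkpoint, cohesin and SKP2 or cyclin F lists) were named after their values were seen. Members and lists were chosen with earlier results of these data known. Functions were tested on simulated data. Positions are from GENCODE annotation and promoters from RefSeq. Alternatives covered the pseudocount, filter, scaling, variance trend, block, a joint fit, and each pair, library or line left out.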

Additional observations from a re-analysis of the deposited data

Results flagged for a closer look

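The response to palbociclib differed between the sensitive and the resistant lines for 9 of the 10 genes by the interaction term (limma, FDR under 0.05). The log2 difference, sensitive minus resistant, was -2.78 for PTTG1, -2.66 for UBE2C, -2.45 for CDC20, -2.05 for FBXO5, -1.88 for CCNF, -1.50 for CKS2, -1.39 for UBE2S, -1.25 for CKS1B and -0.38 for FZR1. FZR1 lost the call under both other scalings, CCNF lost it under median-of-ratios scaling (adjusted p = 0.0630), and all but FBXO5 lost it without any 1 of the 3 resistant pairs. In those fits without a resistant pair, the calls over all genes fell from 1668 to between 177 and 242.

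Among the 4 sensitive lines the response differed for 4 of the 10 genes by the F test (limma, FDR under 0.05). This is near the 37.1% of all genes that did so, and the count does not set the members apart. The distance between the weakest and the strongest line was 2.36 for UBE2C, 2.35 for CCNF, 2.03 for PTTG1 and 1.10 for SKP2 on the log2 scale, and the call was lost in 10 of 20 alternatives for PTTG1 (adjusted p up to 0.181), in 4 for UBE2C (up to 0.127) and in 0 for CCNF and SKP2. SKP2 was the only one whose line means lay on both sides of 0. No group had more than 3 libraries, so no single library was tested for standing apart.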

How the results depend on the processing

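Over the sensitive lines 8 members were called down in each alternative tried (pseudocounts, filters, scalings, no trend, no replicate block, a joint fit of the lines, means per line, each pair or line left out, and 9-day or 10-day experiments). The 9-day and 10-day sets and the leaving out of lines were chosen after seeing the data. The calls over all genes in this comparison are given only for the values as deposited and after each rescaling. No member changed its call over the sensitive lines in these alternatives. With the filter taken off, the count was 0 in each of the 4 sensitive lines taken alone, 2 for the difference among lines and 0 for washout against palbociclib and against DMSO. Without the replicate block the member count was 4 in H2052, 2 for the difference among lines and 0 for both washout comparisons, and the block changed no other count by over 1.5 times. Over all genes the calls without the block were 2828, 2612 and 0. H2052 had 0 members without the trend, and 0 of all genes. MSTO-211H had 7 members with the filter within the fit, 8 in a single fit of all lines and 0 after median-of-ratios scaling. Over all genes these fits called 3325, 4657 and 1932. For washout against DMSO the member count was also 0 with a pseudocount of 1, both scalings and no trend, where 939 to 1048 of all genes were called.

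Leaving out a pair or a line gave 6 to 8 in H2052, 0 to 8 in H2452, 0 to 0 in H28 and in MSTO-211H, 1 to 9 for the difference between classes, 2 to 5 among lines, 0 to 4 for washout against palbociclib and 0 to 0 against DMSO. The fits that gave 0 members called 0 of all genes in H2452, H28, MSTO-211H and for washout against palbociclib, and 232 to 759 for washout against DMSO. Those that gave 1 for the difference between classes called 177 to 242, and those that gave 2 among lines called 4668 and 5153. The list counts ran from 0 to 2 for the APC/C core and 0 to 1 for the SCF core, where without MSTO-211H they were 2 and 1 and the 10-day experiments gave 1 for the SCF core. Fewer pairs were tested in these fits, and otherwise the cause was not tested. With line means as units, the ratio changes were -2.12 (CDC20 to FZR1), -1.19 (UBE2C to UBE2S), -1.71 (FBXO5 to FZR1) and 0.53 (SKP2 to CDKN1B), each with adjusted p = 0.156 (exact permutation test), where every line moved the same way and 4 lines cannot pass the threshold. The CKS1B to CKS2 ratio ran from -0.037 without H2452 to 0.33 without MSTO-211H.

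Of the single genes, 22 values reversed, and none of these was called. After median-of-ratios scaling, FZR1 was at 0.059 in H2052 and -0.15 in the control levels between classes, and SKP2 at 0.049 for the difference between classes and 0.027 for washout against DMSO. The same scaling gave -0.022 for CDC20 and -0.0023 for CKS1B in MPP89, and -0.011 for CKS1B and -0.010 for CCNF over the resistant pairs. Upper-quartile scaling gave -0.051 for FZR1 in the control levels. Leaving out a pair gave -0.22 to 0.37 for SKP2 in H2052. In MPP89 it gave -0.0042 to 0.012 for CDC20, -0.089 to 0.14 for CKS1B, -0.048 to 0.027 for CCNF and -0.077 to 0.025 for PTTG1, in a joint fit that assumes that the lone pair varies like the others. Over the resistant pairs it gave -0.087 to 0.045 for UBE2S, -0.049 to 0.063 for CKS1B and -0.010 to 0.044 for CCNF. SKP2 after washout against DMSO ran from -0.19 without H2052 to 0.13 without H28. FZR1 in the control levels ran from -0.033 to 0.10 with 1 library left out. At the lowest estimated depth a read was worth 1.56 CP20M, so that levels of 23 to 59 CP20M rest on few reads.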
